A study of Mus musculus with 8 samples.

Results

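The miR-302 cluster on mouse chromosome 3 holds 5 microRNA hairpin genes, Mir302b, Mir302c, Mir302a, Mir302d and Mir367, inside an intron of the host gene Larp7. The data were 8 CUT&Tag peak lists. CUT&Tag tethers the transposase Tn5 to an antibody on chromatin, and the fragments it releases near the bound protein are sequenced. Every peak was taken whose summit, its highest point, lay in Larp7 or within 100 kb of the start of Mir302a. This gave 46 of the 661009 peaks of all 8 lists: 1 of 73465 for Nanog, 1 of 75769 for NanogBiD, 2 of 54794 for Oct4, 11 of 93978 for Oct4BiD, 1 of 58162 for Sox2, 7 of 120594 for Sox2BiD, 15 of 108030 for Nr5a2 and 8 of 76217 for Nr5a2BiD. Positions are 1-based coordinates of the mm10 build.

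All 8 libraries came from mouse embryonic fibroblasts (MEFs) on day 3 of reprogramming, and the antibody was against Flag, the tag on the delivered factor. Per the study's methods the cells came from embryos of a cross of OG2 mice, which carry an Oct4-GFP reporter, with 129 mice, and the factors were delivered with pMXs retroviruses. The delivered factors were Nanog, Oct4, Sox2 and Nr5a2. Each has 1 library as the native protein and 1 with BiD, the part of SS18 that binds BRG1, fused to its N-terminus. Whether the same cells received further factors is not given in the titles, the cells were a population and not 1 clone, and no control library was analysed here. The study's reporting summary says the assay was done once, while its methods speak of merged replicates, so no value below has a replicate error and no difference between 2 libraries was tested. The labelled cell type was compared with its defining genes by promoter peaks alone: Col1a1, Col1a2, Thy1, Twist2 and Pdgfrb, genes of fibroblasts, had a summit within 2 kb of a start site in 2 to 5 of 5 cases per library, where 25.2% to 63.5% of all protein-coding genes did, and Pou5f1, Nanog, Zfp42, Dppa5a and Esrrb, genes of pluripotent cells, in 0 of 5 in every library. These counts are a coarse check on 5 genes each, and the fibroblast count of 3 for Oct4BiD, for example, lies near the share of all genes in that list, 55.9%.

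The microRNAs of this cluster are made in pluripotent cells. They repress regulators of the cell cycle and of differentiation, and their forced expression aids reprogramming of fibroblasts. In embryonic stem cells the cluster is read from a promoter of its own next to the hairpins, and Oct4, Sox2 and Nanog bind there. Larp7 protein binds and stabilises the 7SK small nuclear RNA, which holds the elongation factor P-TEFb in an inactive state. The peak lists ask where these factors were found around the cluster early in reprogramming, and whether the BiD form of a factor was found at the same places.

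The mature microRNAs are shown because the seed, bases 2 to 8 from the 5′ end, sets which messenger RNAs a microRNA pairs with, and the seeds show how the hairpins are related. RefSeq sequences for mm10 were found for 9 arms, with the seed in capitals. The 3p arm of Mir302a was not among them, so its seed is not compared here.
mmu-miR-302b-3p: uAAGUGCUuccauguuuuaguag
mmu-miR-302d-3p: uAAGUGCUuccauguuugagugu
mmu-miR-302c-3p: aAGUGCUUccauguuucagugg
mmu-miR-302b-5p: aCUUUAACaugggaaugcuuucu
mmu-miR-302c-5p: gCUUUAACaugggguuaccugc
mmu-miR-302d-5p: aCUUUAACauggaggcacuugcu
mmu-miR-302a-5p: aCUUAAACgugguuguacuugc
mmu-miR-367-3p: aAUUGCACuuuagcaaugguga
mmu-miR-367-5p: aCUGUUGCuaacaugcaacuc
The 3p arms of Mir302b and Mir302d shared the seed AAGUGCU, which 5 of the 1679 listed mouse arms had. The listed 3p arm of Mir302c starts 1 base later in the same run of letters, so that its seed reads AGUGCUU. The 5p arms of Mir302b, Mir302c and Mir302d shared CUUUAAC, which no other listed arm had. Mir367 stood apart, with the seed AUUGCAC in its 3p arm, which 6 listed arms had.

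The cluster ran over 580 bp on the plus strand, from 127545228 at the first base of Mir302b (ENSMUSG00000076252.1) to 127545807 at the last base of Mir367 (ENSMUSG00000065413.2). Mir302c (ENSMUSG00000065482.1), Mir302a (ENSMUSG00000065552.1) and Mir302d (ENSMUSG00000065447.1) lay between them in that order. Larp7 (ENSMUSG00000027968.11), chr3:127536714-127553349, is on the minus strand, so the hairpins are antisense to their host, in an intron of 1547 bp, and overlap none of its exons. The Larp7 start lay 7.5 kb after the end of the cluster. Distances below are from the nearer end of the cluster, with a minus sign for the side of lower coordinates.

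No library had a summit in or next to the 5 hairpins. The nearest summit on the lower side lay 17.4 kb away, and the nearest on the higher side 7.2 kb away, near the Larp7 start. The stretch between them with no summit was 25.2 kb, and 24.4 kb of it was covered by no peak of any library. The hairpins thus had a summit within 2 kb in 0 of 8 libraries. The study names miR-302 among genes targeted by NanogBiD and BRG1, from cells on day 5 that received NanogBiD with Oct4. The lists here are of day 3, and which further factors their cells received is not given. Whether the day or the factors bear on the lack of a peak was not tested. Among 2202 annotated miRNA genes, hairpins of 1 cluster counted separately, 16.0% had no summit of any library within 7 kb, a reach chosen after the distance of 7.2 kb was seen. Of the bases of the stretch that no peak covered, 34.3% are repeat-masked in the reference, against 33.1% of the whole window of 200001 bp, and none is unknown.

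The 300 bases directly before Mir302b are shown because the promoter of the cluster is known to lie there and no library had a peak on them. They are chr3:127544928-127545227, plus strand, from the GRCm38 genome.
Before Mir302b: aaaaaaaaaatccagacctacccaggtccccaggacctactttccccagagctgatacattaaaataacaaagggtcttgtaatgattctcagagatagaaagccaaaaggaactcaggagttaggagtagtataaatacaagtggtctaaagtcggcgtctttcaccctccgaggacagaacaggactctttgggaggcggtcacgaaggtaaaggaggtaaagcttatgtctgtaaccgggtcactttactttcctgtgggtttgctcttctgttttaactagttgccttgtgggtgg
These bases were searched on both strands for 7 sets of letters: the octamer ATGCAAAT that Oct4 binds, the SOX core CATTGT, the NR5A letters TCAAGGNCA, the NANOG letters GCCATTA, and TGANTCA for AP-1, CATTCC for TEAD and AACCACA for RUNX, factors active in fibroblasts. None was found there. Of 27025 RefSeq promoters of 300 bases, each of these was found in 1.75%, 12.8%, 1.61%, 1.63%, 7.93%, 14.6% and 5.37% respectively. The letters are short forms of each motif, and their absence says only that they are not in this window.

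**Figure D1:**
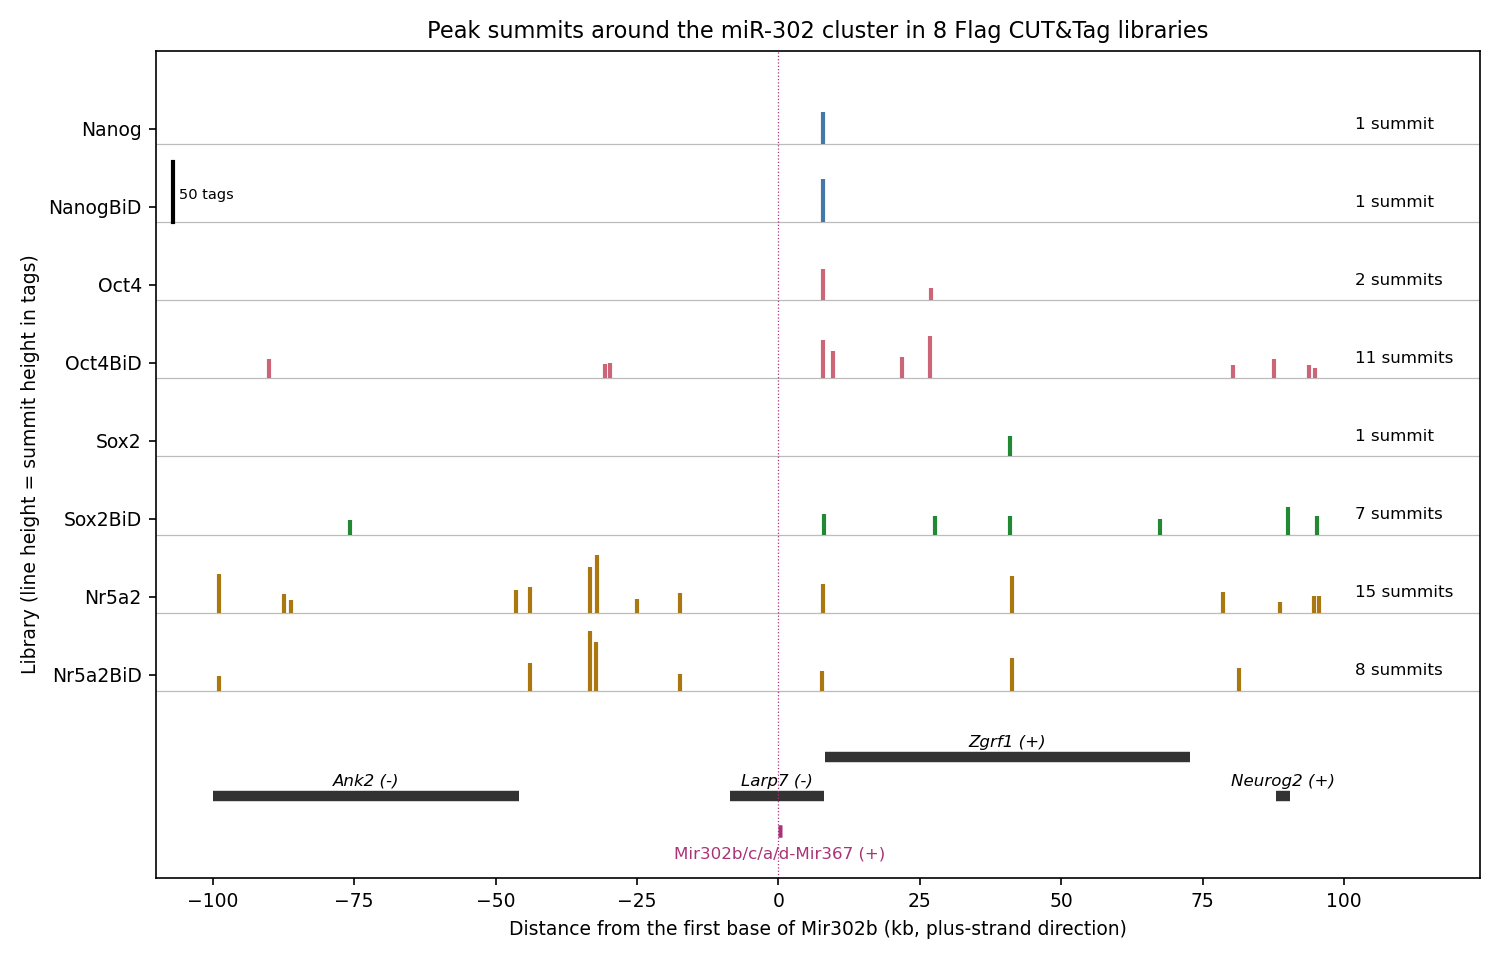
Summits of the 8 libraries by their distance from the first base of Mir302b in kb (horizontal axis), 1 row per library, with the height of each line giving the summit height in tags and the genes drawn below. The 25.2 kb around the cluster hold no line in any row, and the Larp7 and Zgrf1 starts hold one in 7 of 8 rows.

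The 46 peaks were joined into 25 sites, a site being a run of peaks that overlap by at least 1 bp. Of these, 13 lay before the cluster and 12 after it. Sites before the cluster came from the Nr5a2 pair, Oct4BiD and Sox2BiD alone; the native Oct4, native Sox2 and Nanog libraries had summits on the Larp7 and Zgrf1 side only. A total of 10 sites, or 40.0%, were found in 2 or more libraries, against 54% of the 306466 regions made the same way from all peaks. Of the 15 sites found in 1 library, 7 belonged to Oct4BiD, 5 to native Nr5a2, 2 to Sox2BiD and 1 to Nr5a2BiD. Both forms of a factor met at 8 sites, or 32.0%, against 48.5% of all regions, and both Nr5a2 libraries were at 7 of these 8.

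**Figure D2:**
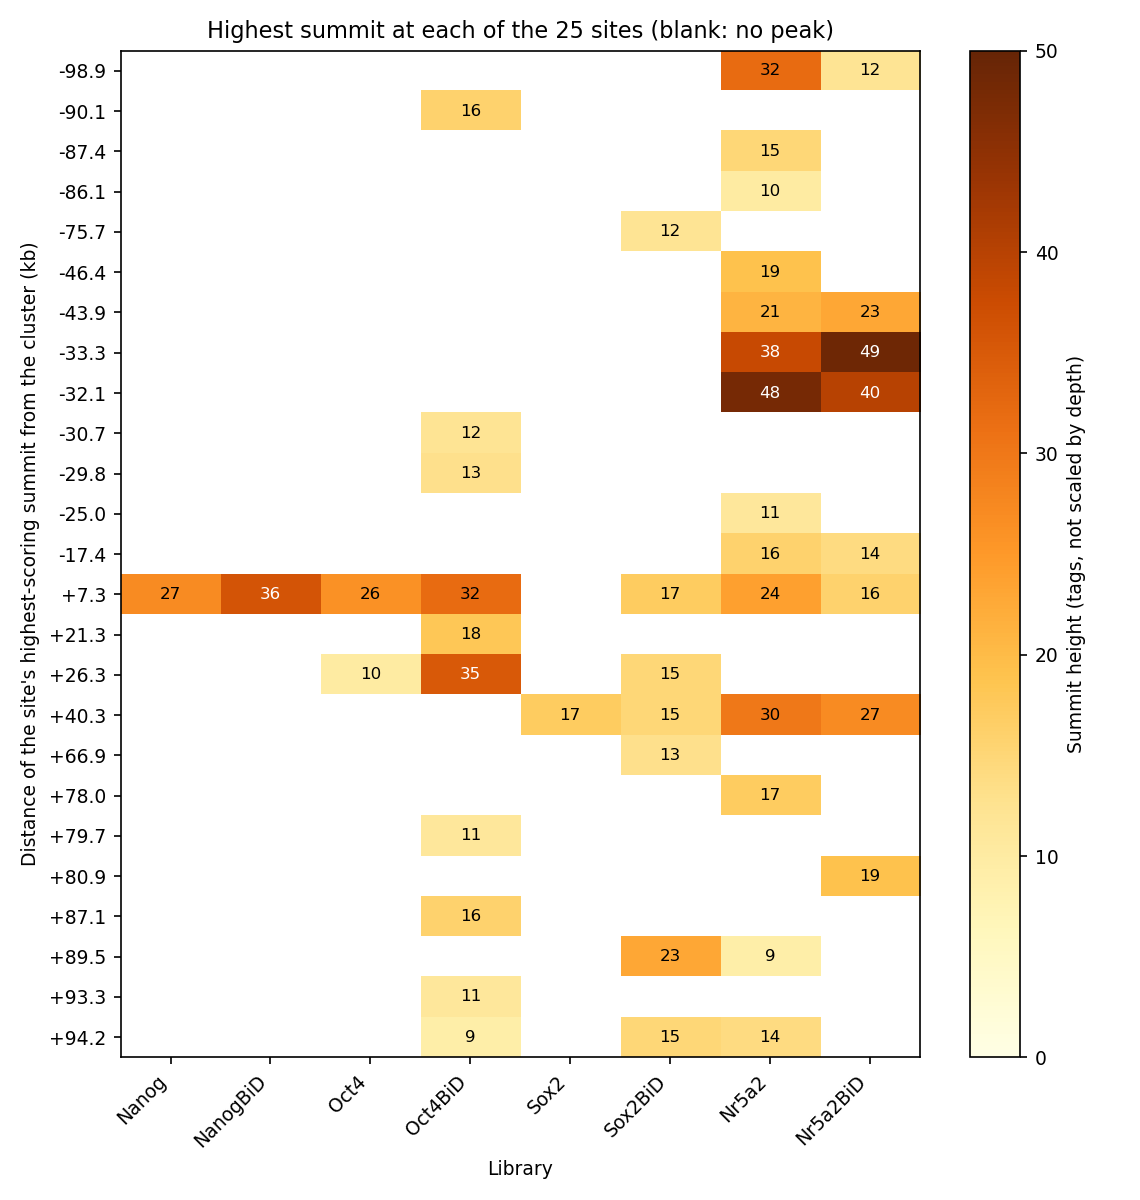
Height of the highest summit in tags (colour and number) for each of the 25 sites (rows, ordered by distance from the cluster in kb) in each library (columns). The Nr5a2 columns fill 5 rows before the cluster together, the row at +7.3 kb is filled in 7 of 8 columns, and the tallest summit, 49 tags in Nr5a2BiD, lies at -33.3 kb.

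Of all sites, that at the Larp7 start was shared by the most libraries. A site at chr3:127552560-127555191 held peaks of 7 libraries, all but native Sox2, and 3.19% of all regions held 7 or more. Larp7 shares this promoter with Zgrf1 (ENSMUSG00000051278.12), a gene for a helicase of DNA repair on the opposite strand, whose start lies 140 bp away. The summit height there was 27 tags for Nanog, 36 for NanogBiD, 26 for Oct4, 32 for Oct4BiD, 17 for Sox2BiD, 24 for Nr5a2 and 16 for Nr5a2BiD. For Nanog, Oct4 and their BiD forms, between 79.0% and 83.3% of all peaks of each library's own list were lower. This share was 57% for Nr5a2, 32.9% for Sox2BiD and 24.9% for Nr5a2BiD. Heights are whole tags and are not scaled to depth, which the lists do not give, so they rank peaks within a library and not between libraries.

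The score, 10 times the negative log10 of the peak caller's p-value, ran from 144 for Nr5a2BiD to 353 for Nanog at these 7 summits. The share of a library's own list that scored lower was 90% for Nanog, 85.8% for NanogBiD and 83.7% for Nr5a2. It was 82.4% for Oct4BiD, 76.4% for Oct4, 67% for Sox2BiD and 60.1% for Nr5a2BiD. The order by score thus differed from that by height. All 7 summits lay inside Larp7, 52 to 329 bp from its start, and they were the only summits inside the gene. The Sox2BiD summit was the one nearest the start, at 52 bp, and the other 6 lay between 241 and 329 bp. The Oct4BiD list had a second peak in the site, 23 tags high, with its summit 1483 bp from the Larp7 start on the Zgrf1 side.

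A summit within 2 kb of a start site is common, and the share of the 21938 protein-coding genes with one was 51.2% for Nanog, 54.5% for NanogBiD, 39.0% for Oct4, 55.9% for Oct4BiD, 25.2% for Sox2, 53.4% for Sox2BiD, 63.5% for Nr5a2 and 54% for Nr5a2BiD. Native Sox2, the library without a peak at Larp7, was the one with the lowest share. The peaks at Larp7 are read against these shares, and nothing is called particular to the gene from them.

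**Figure D3:**
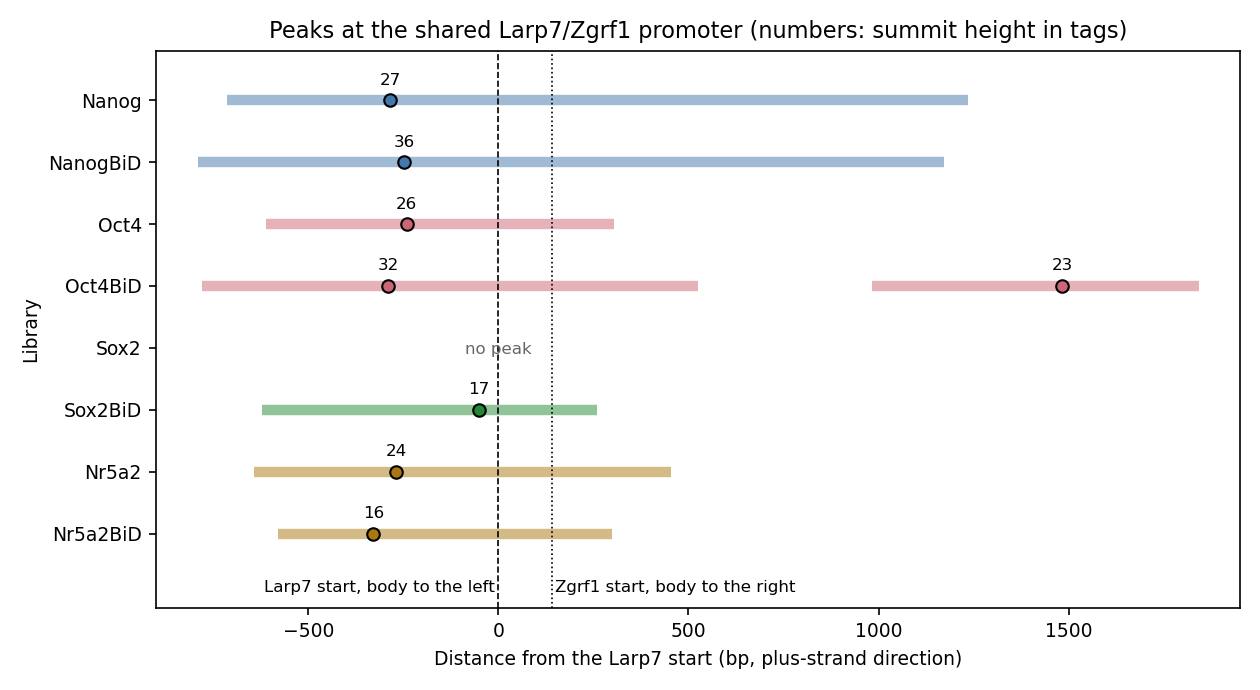
Extent (bars) and summit (points, with the height in tags) of each peak at the Larp7 and Zgrf1 starts, by distance from the Larp7 start in bp (horizontal axis), 1 row per library. The first summits of 7 libraries lie 52 to 329 bp inside Larp7, native Sox2 has no peak, and Oct4BiD has a second summit at 1483 bp.

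The RefSeq promoter of Larp7, chr3:127553300-127553599 on the minus strand, is shown because the first peak of each of the 7 libraries covered all of it, while their summits lay just past its last base, inside the gene.
Larp7 promoter: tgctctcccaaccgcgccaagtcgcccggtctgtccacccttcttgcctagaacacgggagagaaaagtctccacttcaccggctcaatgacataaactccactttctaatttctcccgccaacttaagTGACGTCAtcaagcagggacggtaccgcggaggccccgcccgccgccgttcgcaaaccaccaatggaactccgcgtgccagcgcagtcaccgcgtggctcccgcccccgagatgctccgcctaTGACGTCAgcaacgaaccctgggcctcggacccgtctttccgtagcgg
None of the 7 sets of letters was found in it. The capitals mark 2 copies of TGACGTCA, the cyclic AMP response element that CREB and ATF factors bind, which reads the same on both strands. These letters were chosen after the sequence was read. They were present at least once in 1.88% of the 27025 RefSeq promoters and at least 2 times in 0.0481%, or 13 of them. The first copy began 121 bp before the Larp7 start and the second 2 bp after it.

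Native Nr5a2 had the most summits around the cluster, and the Nr5a2 libraries had the tallest ones before it, in tags not scaled to depth. Nr5a2 is a nuclear receptor that can stand in for Oct4 in reprogramming and binds DNA as a single molecule. The highest-scoring Nr5a2 peak of the locus was the native one at -32.1 kb, chr3:127512569-127514013, with 48 tags and a score of 353.49. It lay over the exon of the pseudogene Gm43354. Nr5a2BiD had 40 tags and a score of 186 there, and the summits of both forms lay 20 bp apart. In the next site, at -33.3 kb, the order was the other way: Nr5a2BiD had 49 tags and a score of 276, its highest of the locus, and native Nr5a2 38 tags and a score of 211. Both sites lay between Ank2 and Larp7, 13729 and 12546 bp from the nearest start of a protein-coding gene, that of Ank2. No other library had a peak at either.

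The 50 bases to either side of the higher-scoring summit of each of these 2 sites are shown because they are the tallest Nr5a2 peaks of the locus, with matches to the searched letters in capitals (plus strand, GRCm38).
Site at -32.1 kb, chr3:127513029-127513129: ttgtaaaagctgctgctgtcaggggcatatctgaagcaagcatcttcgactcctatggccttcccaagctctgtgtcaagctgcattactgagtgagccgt
Site at -33.3 kb, chr3:127511846-127511946: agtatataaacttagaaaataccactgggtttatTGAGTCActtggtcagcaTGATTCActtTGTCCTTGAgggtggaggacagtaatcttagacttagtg
The site at -33.3 kb holds 1 match to the NR5A letters on the minus strand, TGTCCTTGA, and 2 AP-1 matches, TGAGTCA and TGATTCA, within 50 bp of the summits of both forms. The bases at -32.1 kb hold none of the searched letters. Within 50 bp of a summit, the NR5A letters were found at 1 of 15 native Nr5a2 summits (6.67%, exact binomial 95% interval 0.169 to 31.9%) and at 2 of 8 Nr5a2BiD summits (25%, 3.19 to 65.1%). Over all summits of the same lists the shares were 9.09% and 6.13%, inside both intervals. With 15 and 8 summits these intervals are wide, so no likeness to the lists is read from them. The second Nr5a2BiD match lay at the site at -98.9 kb, near the BiD summit and not near the native one, 107 bp away. That BiD summit also had the NANOG letters. The TEAD letters were found at 3 of 8 Nr5a2BiD summits (37.5%, 8.52 to 75.5%), against 9.32% of its list. They were found at 0 of 15 native Nr5a2 summits, against 7.75% of that list. This difference between forms was not tested.

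The remaining Nr5a2 pairs had lower summits. At -98.9 kb, in an Ank2 intron, native Nr5a2 had 32 tags and a score of 336, and Nr5a2BiD 12 tags and a score of 57.65, the widest gap between both forms at any Nr5a2 site. At -43.9 kb the heights were 21 tags for Nr5a2 and 23 for Nr5a2BiD, and at -17.4 kb, the site closest to the cluster on that side, 16 and 14. At +40.3 kb they were 30 and 27. Over the 7 Nr5a2 sites the native form was the taller one at 5 and had the higher score at 5, with neither measure scaled to depth. The distance between native and BiD summits of the same factor ran from 20 to 1724 bp over 12 pairs, with a median of 42 bp, where the longest distance is that to the second Oct4BiD peak at the Larp7 promoter site.

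Ank2 (ENSMUSG00000032826.17) encodes ankyrin-B, an adaptor between membrane proteins and the cytoskeleton, and its longest transcripts start at -46.1 kb from Mir302a. Its starts in the window had a summit within 2 kb in the Nr5a2 and Nr5a2BiD libraries alone. The native Nr5a2 peak at -46.4 kb, chr3:127498084-127499565, covered the start of the longest transcripts, with 19 tags and a score of 173, and its summit lay 191 bp from another Ank2 start inside the gene. At -43.9 kb the Nr5a2BiD summit lay 1952 bp from the start of the longest transcripts. The hairpin gene Gm44494, within Ank2, had no promoter summit in any library.

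The Oct4 pair met at 2 sites, and Oct4BiD had 11 summits at the locus against 2 for native Oct4. Oct4, encoded by Pou5f1, is a POU factor of the pluripotency network. Beside the Larp7 promoter, the pair shared the site at +26.3 kb, chr3:127571496-127573215, in a Zgrf1 intron. Native Oct4 had 10 tags there, with 1.1% of its own peaks lower, and Oct4BiD had 35 tags, with 82.8% of its own peaks lower, its tallest summit of the locus. Sox2BiD had 15 tags at the same site, with its summit 726 bp from that of Oct4BiD. The other 7 sites with an Oct4BiD peak alone were low, from 11 to 18 tags, with scores from 60.57 to 114.

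The 50 bases to either side of the Oct4BiD summit at +26.3 kb, chr3:127572051-127572151, are shown because they hold the one octamer match at a summit of the locus, in capitals.
Site at +26.3 kb: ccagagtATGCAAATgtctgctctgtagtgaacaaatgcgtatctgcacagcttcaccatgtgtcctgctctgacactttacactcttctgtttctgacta
The match lay within 50 bp of the Oct4BiD summit and not of the native summit 75 bp further on. Of the 11 Oct4BiD summits, 1 had the octamer (9.09%, exact binomial 95% interval 0.23 to 41.3%), against 9.72% of all Oct4BiD summits.

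Sox2 had 1 summit as the native factor and 7 as Sox2BiD. Sox2 is an HMG-box factor that pairs with Oct4 on DNA in pluripotent cells. Both forms met at +40.3 kb, chr3:127585444-127586925, over a coding exon of Zgrf1, with 17 tags for native Sox2 and 15 for Sox2BiD and summits 31 bp apart. Their scores were 54.3 and 239.9: the native peak lay near the floor of its list, with 5.0% of its own peaks scoring lower, and the BiD peak above 68.7% of its own. Both Nr5a2 libraries were also at this site, but at their own place: the Sox2 summits were 31 bp apart, those of the Nr5a2 pair 28 bp, and the 4 summits together spanned 449 bp.

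The 50 bases to either side of the Sox2BiD summit, chr3:127586068-127586168, are shown because both Sox2 summits had the SOX core within 50 bp, in capitals on the minus strand as ACAATG, while the Nr5a2 summits of the same site had none of the searched letters.
Site at +40.3 kb: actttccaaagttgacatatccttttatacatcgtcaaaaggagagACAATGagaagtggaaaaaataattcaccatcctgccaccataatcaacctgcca
Of the 7 Sox2BiD summits, 3 had the SOX core (42.9%, exact binomial 95% interval 9.9 to 81.6%), against 22.3% of all Sox2BiD summits, a share inside the interval. The other 2 lay at and after Neurog2. The SOX core also lay within 50 bp of 1 summit each of Oct4BiD and Nr5a2BiD before the cluster and of native Nr5a2 at +95.1 kb.

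Neurog2 (ENSMUSG00000027967.8), a bHLH factor of nerve cell formation, lies 87.6 kb after Mir302a. Its start had a summit within 2 kb in 2 libraries, Oct4BiD with 16 tags, 241 bp before the start, and native Nr5a2 with 9 tags, a height that 0.1% of the Nr5a2 list fell below. Sox2BiD had its tallest summit of the locus, 23 tags, in the UTR of the gene, 2134 bp after the start. The site at +94.2 kb held peaks of 3 libraries: Oct4BiD with 9 tags, Sox2BiD with 15 and native Nr5a2 with 2 peaks of 14 tags each. The Oct4BiD and Sox2BiD peaks did not overlap each other and were joined through an Nr5a2 peak, and the summits spanned 900 bp. The Oct4BiD peak lay near the floor of its list, with 0.9% of its own peaks lower and 5% scoring lower. No site past the Zgrf1 gene was found in both forms of a factor.

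The Nanog libraries had 1 summit each at the locus, both at the Larp7 promoter, 38 bp apart. Nanog is a homeodomain factor of the pluripotency network. The next Nanog summit lay 136.5 kb before Mir302a, with 23 tags, and the next NanogBiD summit at the same 136.5 kb, with 37 tags. Both Nr5a2 libraries had a summit close by, at 136.4 and 136.5 kb, just as they had a pair just past the other edge, at 103.1 and 103.2 kb. The members nearest the edge on the inside were the Nr5a2 pair at 99.1 and 99.2 kb.

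The number of summits was set beside that of all 24140 protein-coding and miRNA genes, counted in the same way within 100 kb of each gene start. Nanog had 1 summit against a median of 7 over genes, and 88.6% of genes had at least as many. NanogBiD had 1 against a median of 8, and 87.6% of genes had at least as many. Native Sox2 had 1 against 4, with 88.3% of genes at or above it. Native Oct4 had 2 against 5, with 82.0% at or above. Sox2BiD had 7 against 12, with 75.2% at or above. The Nr5a2 libraries and Oct4BiD lay close to the middle of the genes: Nr5a2 had 15 against 14, with 48.5% at or above, Nr5a2BiD 8 against 9, with 59.2%, and Oct4BiD 11 against 10, with 44.7%. The miR-302 cluster thus had fewer summits than the median gene in 6 of 8 libraries, and neighbouring genes share windows, so these shares are descriptions.

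**Figure D4:**
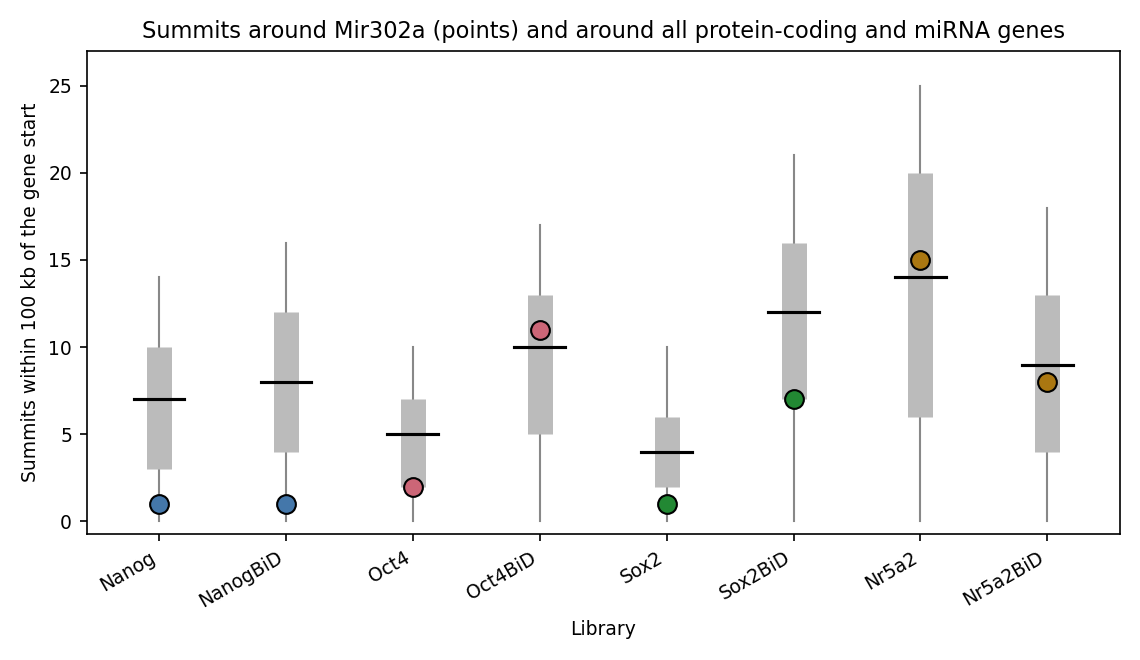
Number of summits within 100 kb of the gene start (vertical axis) in each library, with a point for Mir302a and, for all 24140 protein-coding and miRNA genes, a line for the median, a wide bar from the 25th to the 75th percentile and a thin line from the 5th to the 95th. The points of Nanog, NanogBiD and Sox2 lie at 1 summit, under the wide bars, while those of Oct4BiD and Nr5a2 lie just above the median line.

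The share of a list's peaks at the locus was compared between forms. It was 0.136 per 10000 peaks for Nanog and 0.132 for NanogBiD, 0.365 for Oct4 and 1.17 for Oct4BiD, 0.172 for Sox2 and 0.58 for Sox2BiD, and 1.39 for Nr5a2 and 1.05 for Nr5a2BiD. It was higher in the BiD library for Oct4 and Sox2, lower for Nr5a2, and level for Nanog, where each value is 1 peak. The mean difference, BiD minus native, was 0.218 ± 0.497 per 10000 peaks (SD, n = 4 factors), smaller than its spread between factors. A two-sided exact permutation test that flips the signs of the 4 differences gave p = 0.5, where the smallest p that 4 factors allow is 0.125. By the read pairs in the study's reporting summary, native Oct4 and Sox2 were sequenced more deeply than their BiD libraries. Native Nr5a2 and Nanog were sequenced less deeply than theirs. Whether depth bears on the summits at the locus was not tested. The tags left after filtering are not given in the sources used here. Without Oct4 the mean difference was 0.0218 per 10000 peaks and without Nr5a2 0.403, and within 50 kb of Mir302a it was 0.0982 over all 4 factors.

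**Figure D5:**
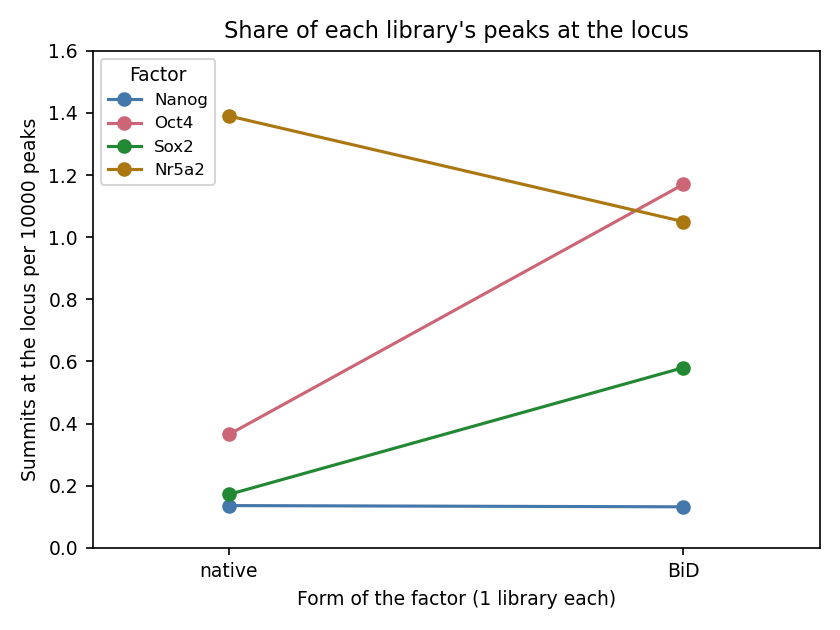
Summits at the locus per 10000 peaks of the library (vertical axis) in the native and the BiD library of each factor (1 library each, joined by a line per factor). The lines of Oct4 and Sox2 go up, that of Nr5a2 goes down, and that of Nanog is level near 0.13.

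Whether native and BiD forms were found at the same sites was tested over the labels of the 4 factors. The count of sites that held both forms, summed over factors, was 11: 7 for Nr5a2, 2 for Oct4, 1 for Sox2 and 1 for Nanog. A site counts once for each factor with both forms there. The Larp7 promoter site thus counts for Nanog, Oct4 and Nr5a2, and the site at +40.3 kb for Sox2 and Nr5a2. Among all 24 ways to match the 4 native with the 4 BiD libraries, the highest sum of any other was 10. The one-sided exact permutation test gave p = 0.0417, the smallest that 24 pairings allow. The same question had already been answered genome-wide with these data, so this p is not independent of that answer. The test did not pass with peaks of a score of at least 100 (6 sites, exact p = 0.25) or with the 20000 highest-scoring peaks of each list (2 sites, exact p = 0.5). The sum rests mostly on Nr5a2: it was 4 without that factor, where the p of the exact test was 0.167, the smallest that 3 factors allow. Native Nr5a2 shared 4 sites with Sox2BiD and 2 with Oct4BiD. For the other factors the native library shared no more sites with its own BiD form than with some other BiD library. Native Oct4 shared 2 sites with Oct4BiD and 2 with Sox2BiD, and native Sox2 shared 1 with Sox2BiD and 1 with Nr5a2BiD. Nanog shared 1 site with every BiD library.

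Other genes of the 7SK complex and other microRNAs were counted for comparison. Of 8 genes of the complex (Larp7, Rn7sk, Mepce, Hexim1, Hexim2, Cdk9, Ccnt1 and Ccnt2), 5 had a promoter summit for native Sox2, 7 for native Oct4 and all 8 for each other library, where 25.2%, 39.0% and 51.2% to 63.5% of all protein-coding genes had one. Summed over the 8 libraries, Larp7 had 46 summits within 100 kb, the fewest of this list, and Hexim1, an inhibitor of P-TEFb, had the most, 127. This order did not hold in each library: for native Nr5a2, Larp7 had 15 against 9 for Ccnt2, and for Oct4BiD 11 against 6 for Mepce. Of 8 hairpins of clusters made in pluripotent cells, 0 to 4 per library had a summit within 2 kb, and Mir302b had none. Over all 2202 annotated miRNA genes the share with one was 15.0% for Nanog, 16.4% for NanogBiD, 14.1% for Oct4, 22.2% for Oct4BiD, 10.4% for Sox2, 22.1% for Sox2BiD, 26.9% for Nr5a2 and 19.3% for Nr5a2BiD. Summed over libraries, Mir302b had 46 summits within 100 kb, more than Mir106a with 33 and fewer than Mir17 with 54, Mir290a with 64 and Mir200c with 103. Of 9 hairpins made in fibroblasts or differentiated cells, 1 to 5 per library had a summit within 2 kb, with Mirlet7g lowest at 61 summits within 100 kb and Mir199a-2 highest at 160. A hairpin's first base is not the start of its primary transcript, so these counts can miss the promoters of microRNA genes. The lists were chosen with earlier results of these data known and get no test.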

How the data were processed

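CUT&Tag was done by the authors on 8 libraries of day 3 cells with an antibody against Flag. Tools are named by the submitters' processing notes and the study's methods. Adapters were cut by the authors (Trim Galore 0.6.4), reads were aligned with Bowtie2 2.4.5 to the mm10 build, and SAMtools 1.16.1 served to drop repetitive, mitochondrial and poorly mapped reads (mapping quality under 30). MACS 1.4.2 was run with 1 tag kept at each position and a shift size of 25 bp. The deposited score of a peak is 10 times the negative log10 of its p-value, with 50 as the lowest value in the lists. The deposited signal of a summit is its height in whole tags, not scaled to depth. The lists carry no read totals. The study's reporting summary gives read pairs for libraries of these names, but not the tags left for peak calling, so no value was scaled to depth. Depth can change the number and height of peaks, which was not tested here. The library with more read pairs had the shorter list for Oct4, Sox2 and Nr5a2 and the longer list for Nanog. Repeats lose their peaks with the repetitive reads. Labels and methods name different kits.

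All values were computed in Python 3.11.15 (SciPy 1.17.1, pandas 2.3.3, NumPy 2.4.6), with plots from matplotlib 3.10.9. Groups were taken from the titles. Coordinates were checked against GRCm38 (0 peaks ran past a chromosome end) and genes taken from GENCODE M21. A promoter was 2 kb to either side of a start site, for members and neighbours only start sites within the window. Motif letters were searched within 50 bp of a summit. Every member, every protein-coding or miRNA gene starting within 100 kb of Mir302a, every site in 2 or more libraries and the highest-scoring peak of each library were to be named. Other sites are named for their place at a gene, and were chosen after their values were seen. Members, lists and tests were chosen with earlier results of these data known. The code for sites, windows, motif searches and the count of shared sites was checked on simulated data. The sign-flip code was checked on fixed numbers with known p, and the error rates of the tests were not simulated. Alternatives were other windows, thresholds, site rules and reaches, and leaving out each factor. Intervals cover counting error only and treat the summits of a library as independent.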

Additional observations from a re-analysis of the deposited data

Results flagged for a closer look

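The factors differed in the direction of the change in summits at the locus from the native to the BiD library, and this difference was not tested, since each form has 1 library. Per 10000 peaks, BiD minus native, the change was 0.805 for Oct4 and 0.409 for Sox2, against -0.339 for Nr5a2 and -0.00414 for Nanog. The Nanog value stands for 1 peak in each list.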

How the results depend on the processing

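Peak lists without replicates and not scaled to depth limit these results, and counts at 1 locus are small. With the 20000 highest-scoring peaks of each list, the mean difference between BiD and native summits reversed to -0.25 per 10000 peaks (p = 1, exact permutation test), and it ran from 0.0218 to 0.403 without each factor in turn. The count of sites with both forms fell to 2 (p = 0.5, exact) with the 20000 highest peaks and to 6 (p = 0.25, exact) with a score of at least 100, and ran from 4 to 10 without each factor in turn, where 3 factors allow no p under 0.167 (exact). Sites at the locus fell from 25 to 4 and 13 under these limits, and sites in 2 or more libraries from 10 to 1 and 5, by construction since fewer peaks remain.

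Among the 20000 highest peaks, summits at the locus were 1 for Oct4, 1 for Oct4BiD, 0 for Sox2, 0 for Sox2BiD, 3 for Nr5a2 and 1 for Nr5a2BiD. With a score of at least 100 they were 1 for Oct4, 3 for Oct4BiD, 0 for Sox2, 4 for Sox2BiD and 8 for Nr5a2. Within 50 kb they were 6 for Oct4BiD, 3 for Sox2BiD and 8 for Nr5a2, and within 200 kb 2 for Nanog, 3 for NanogBiD, 6 for Oct4, 17 for Oct4BiD, 4 for Sox2, 15 for Sox2BiD, 23 for Nr5a2 and 14 for Nr5a2BiD. Sites with the octamer went from 1 to 0 within 25 bp of a summit and to 2 within 100 bp, those with the SOX core from 5 to 2 within 25 bp, those with AP-1 from 1 to 3 and those with RUNX from 0 to 1 within 100 bp. Native and BiD libraries were paired by factor. No pairing by replicate was possible, because each group has 1 library and the titles carry no replicate number.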
